A study of Homo sapiens with 4 samples.

Results

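Tropomyosins and alpha-actinins are the proteins that coat and cross-link actin filaments. The genes considered were TPM1, TPM2, TPM3 and TPM4, which encode tropomyosins, and ACTN1 and ACTN4, which encode the alpha-actinins of non-muscle cells. Members were all cassette exon events that the authors' deposited splicing table lists under these 6 gene symbols. A cassette exon is one that the mature RNA either contains, between its flanking exons, or leaves out, and the table holds an event for each choice of flanks. The rule found 11 events, each a different exon, among the 31408 events of the table. They came from 5 genes: 4 from TPM3, 3 from ACTN4, 2 from TPM1 and 1 each from TPM2 and ACTN1. TPM4 was listed with 0 events.

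Tropomyosin is a coiled coil that lies along the actin filament and controls which other proteins can bind it. Together the tropomyosin genes make several forms by switching promoters, by choosing between alternative internal exons and by choosing between alternative 3′ ends. Not every gene uses all of these means, and muscle and non-muscle cells use different combinations. Alpha-actinin is an antiparallel dimer that bundles actin filaments in stress fibres, at cell adhesions and, in muscle, at the Z-disc. RBFOX2, also called RBM9, is a splicing regulator that binds the RNA element GCATG beside or within alternative exons.

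The libraries came from HEK293T, a human embryonic kidney cell line. Total RNA was depleted of ribosomal RNA and made into 4 stranded libraries. Of these, 2 came from clones with the genotype WT (titled RBM9-WT) and 2 from clones with the genotype RBFOX2 KO (titled RBM9-KO). The protocol given for both genotypes is transfection with PX459, a Cas9 plasmid, and with pgRGFP carrying guides on either side of RBFOX2, followed by single-cell sorting and genotyping by PCR. Each library therefore stands for 1 clone. The table compares a first with a second set of libraries and does not say which set is which genotype, so every direction is given between sets. Junction counts and inclusion levels per library could not be assigned to clones and are not shown. The differences are therefore given without a replicate SD or read depth. RBFOX2 itself had 0 events, so its loss could not be checked in this table, and a splicing table holds no expression markers against which to check the cell line.

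TPM1 was the gene whose exons differed between the sets. The authors' deposited table listed a 79-nt and a 127-nt exon of TPM1 (ENSG00000140416) on the plus strand of chromosome 15. They start at the same position, 63356263, and end at 63356341 and 63356389 in hg19. Both exons follow the same 70-nt exon after an intron of 1418 nt. The 79 bases that they share lie wholly within the coding sequence in GENCODE 29 and supply the C-terminal end of a TPM1 form of 284 codons. This end is best known from tropomyosin of striated muscle. TPM3 (ENSG00000143549) has the corresponding exon, also of 79 nt, on the minus strand of chromosome 1. The exons of the 2 genes are shown together because only the first passed the limits used here. Capitals mark the 11 bases at which they differ, and the other 68 of 79 (86.1%) are identical.
TPM1, chr15:63356263-63356341, plus strand: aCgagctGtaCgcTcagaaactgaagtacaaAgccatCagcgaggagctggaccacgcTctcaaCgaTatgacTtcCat
TPM3, chr1:154141781-154141859, minus strand: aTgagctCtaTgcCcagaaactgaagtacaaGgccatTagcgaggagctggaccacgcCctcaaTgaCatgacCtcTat

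ACTN4 (ENSG00000130402) was the gene with a pair of exons that replace each other. The authors' deposited table listed 2 exons of 86 nt on the plus strand of chromosome 19, separated by 933 nt and listed with the same flanking exons of 82 and 93 nt. No GENCODE transcript holds both (0 of the 11 transcripts of ACTN4). Few transcripts bear on this: between these flanks, 2 hold the 5′ exon and 1 holds the 3′ exon. Both encode the same stretch of the protein in alternative versions. Capitals mark the 21 bases at which they differ, and 65 of 86 (75.6%) are identical.
ACTN4, 5′ exon, chr19:39200897-39200982, plus strand: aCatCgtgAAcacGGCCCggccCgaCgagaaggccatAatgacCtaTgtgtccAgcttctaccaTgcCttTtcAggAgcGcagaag
ACTN4, 3′ exon, chr19:39201916-39202001, plus strand: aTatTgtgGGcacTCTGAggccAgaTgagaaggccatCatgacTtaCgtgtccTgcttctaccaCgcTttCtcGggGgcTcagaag

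TPM2 (ENSG00000198467), on the minus strand of chromosome 9, has a comparable pair, of which 1 exon was listed as the cassette exon and the other as its 3′ flanking exon. Both are 76 nt long and wholly coding. Of the transcripts in GENCODE 29, 3 hold the listed exon, 5 hold its neighbour and 0 hold both. Capitals mark the 36 differing bases, and 40 of 76 (52.6%) are identical. The exon pair of TPM2 is thus less alike than the pair of ACTN4.
TPM2, listed exon, chr9:35685061-35685136, minus strand: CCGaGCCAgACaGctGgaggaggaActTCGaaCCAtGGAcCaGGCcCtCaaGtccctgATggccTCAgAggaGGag
TPM2, neighbouring exon, chr9:35684729-35684804, minus strand: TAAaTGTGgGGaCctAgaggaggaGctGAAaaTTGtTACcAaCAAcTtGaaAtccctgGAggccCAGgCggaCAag

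**Figure D1:**
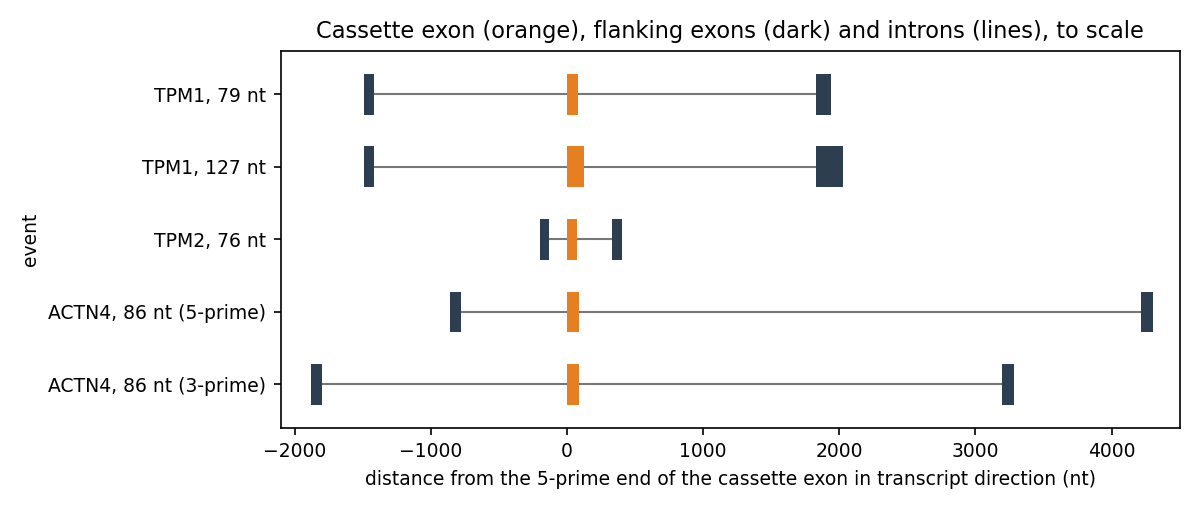
Structure of 5 events of TPM1, TPM2 and ACTN4, drawn to scale in transcript direction; the x axis is the distance in nt from the 5′ end of the cassette exon. The TPM1 exons of 79 and 127 nt share their 5′ end and the start of the downstream flank, and the ACTN4 exons of 86 nt lie between the same flanking exons.

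The inclusion level runs from 0 to 1 and is the share of an event's junction reads, scaled by length, that come from the form with the exon. A difference is the first set minus the second. An event passed where the false discovery rate (FDR) was under 0.05 and the levels differed by at least 0.1. The p-value and FDR are those of the authors' model for 2 libraries per set. Of the 11 events, 2 passed, against 5.15% of all events in the table, and both are TPM1 events. Both had the higher inclusion in the second set, a direction in which 2.38% of all events passed. The 2 events share reads, so they are not separate observations.

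The 79-nt exon of TPM1 had the larger and stronger difference. The authors' deposited table gave it an inclusion difference of -0.395 with a p-value of 2.89e-08 and an FDR of 2.99e-06. In the whole table, 303 events (0.965%) had a lower p-value. A Bonferroni correction over the table gave 0.000909, so this exon also passed there.

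The 127-nt form of the TPM1 exon uses a 5′ splice site 48 nt further downstream. The authors' deposited table gave it a difference of -0.25 with a p-value of 0.00235 and an FDR of 0.0407. It was close to the limit: 1809 events (5.76%) had a lower p-value, and it did not pass an FDR limit of 0.01 or a Bonferroni correction. Both TPM1 events were listed with the same 5′ inclusion junction and the same skipping junction, and differ in the junction that leaves the exon. The direction of the longer form is therefore not independent of that of the shorter form.

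The extra 48 nt of the long form hold the end of the reading frame. In the protein-coding GENCODE transcripts with the 127-nt exon, the first 80 bases are coding, the shared 79 and 1 more, and the stop codon follows. In those with the 79-nt exon, all 79 bases are coding and the stop codon follows in the next exon. The encoded protein has 284 codons with either exon in the transcripts TPM1-202, TPM1-207, TPM1-227 and TPM1-230. The choice between the 2 splice sites thus leaves the annotated protein length as it is.

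Removal of the TPM1 exon from the annotated transcripts changes the end of the protein and not its approximate length. When the exon was deleted from these sequences by computation, the first 257 codons stayed the same and the reading frame ran on to 287 codons, with the new stop codon in the last exon. The same deletion in TPM1-218, a shorter form, changed 248 codons to 251. GENCODE 29 holds the skipping junction of these events in 1 TPM1 transcript, which is annotated as a retained intron. The event also measures only a part of TPM1 splicing at this point. Of 22 annotated TPM1 transcripts in which the 70-nt exon is joined to another exon, 7 continue to the cassette exon, 1 continues to the flanking exon of the event and 14 continue to exons further 3′. Reads of those last forms, among them the 3′ ends used outside striated muscle, enter neither side of the inclusion level.

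The corresponding exon of TPM3 differed by little. The authors' deposited table gave the 79-nt TPM3 exon a difference of 0.014, higher in the first set, with a p-value of 0.00528 and an FDR of 0.0756. It was the third event of the group with an unadjusted p-value under 0.05, against 12% of all events in the table. It passed neither limit, and its size was far below the minimum difference of 0.1. In this gene the exon is included in 1 annotated transcript, TPM3-205, and skipped in 12, of which 7 are protein-coding. Deleting it from TPM3-205 by computation left 248 codons unchanged in number, with 221 codons before the exon. The difference between the responses of the TPM1 and TPM3 exons was not tested.

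The other TPM3 events showed differences of 0.01 or less. A 76-nt coding exon (chromosome 1, 154144505 to 154144580) belongs to the internal region at which tropomyosin genes hold alternative exons; its difference in the authors' deposited table was 0.003 at a p-value of 1. Its sequence was identical to the listed TPM2 exon of the same length at 49 of 76 bases (64.5%) and to the neighbouring TPM2 exon at 39 (51.3%). An exon near the 5′ end of the gene was listed in 2 lengths, 65 nt (154148591 to 154148655) and 134 nt (154148591 to 154148724), which share their 5′ splice site and differ by 69 nt at the 3′ splice site. The authors' deposited table gave differences of 0.01 and 0.002 for them, each at a p-value of 1. The 134-nt form is wholly coding, while the 65-nt form is found in a single transcript, which is not annotated as protein-coding.

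TPM2 shows that a large difference alone did not make a call. The authors' deposited table gave its 76-nt exon a difference of -0.354, almost the size of that of TPM1 and in the same direction, with a p-value and an FDR of 1. The inclusion form of this event joins both 76-nt exons in 1 message, a combination held by 0 annotated transcripts. The skipping form, which joins the 71-nt upstream exon directly to the neighbouring exon, is held by 5 transcripts, of which 4 are protein-coding. Reads on the junction from the 71-nt exon to the listed exon also count for inclusion. That junction is in the 3 annotated transcripts that hold the listed exon without its neighbour. At this junction the event does set the listed exon against its neighbour, the choice that annotated transcripts make. The junction between the 2 exons of 76 nt is in 0 annotated transcripts. The number of reads behind the event, and their split between these junctions, is not shown.

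The paired exons of ACTN4 were listed with opposite signs and small sizes. The authors' deposited table gave a difference of -0.002 for the 5′ exon, at a p-value of 1, and of 0.018 for the 3′ exon, at a p-value of 0.872. Neither passed, and 0.018 was the largest absolute difference of the 4 actinin events. The 5′ exon is exon 8 of 21 in the transcript ACTN4-201, and the 3′ exon is held by 1 transcript, ACTN4-209, whose annotation has 5 exons. No annotated transcript joins the flanking exons directly. Each exon of the pair was thus measured against a skipping form that is missing from GENCODE 29, and the table's event type does not measure one exon against the other.

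The remaining actinin exons are ones that no annotated transcript skips between these flanks. A 148-nt exon of ACTN4 (chromosome 19, 39208567 to 39208714) stood at -0.01 in the authors' deposited table. An 88-nt exon of ACTN1 (ENSG00000072110; chromosome 14, 69376672 to 69376759, minus strand), the fifth exon of the gene's long transcripts, was listed at -0.011. Both had a p-value of 1. Deleting the ACTN1 exon from ACTN1-203 by computation shortened the reading frame from 914 to 152 codons. For the 148-nt exon in ACTN4-201 it fell from 911 to 386 codons, and for the 5′ exon of the ACTN4 pair from 911 to 245.

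**Figure D2:**
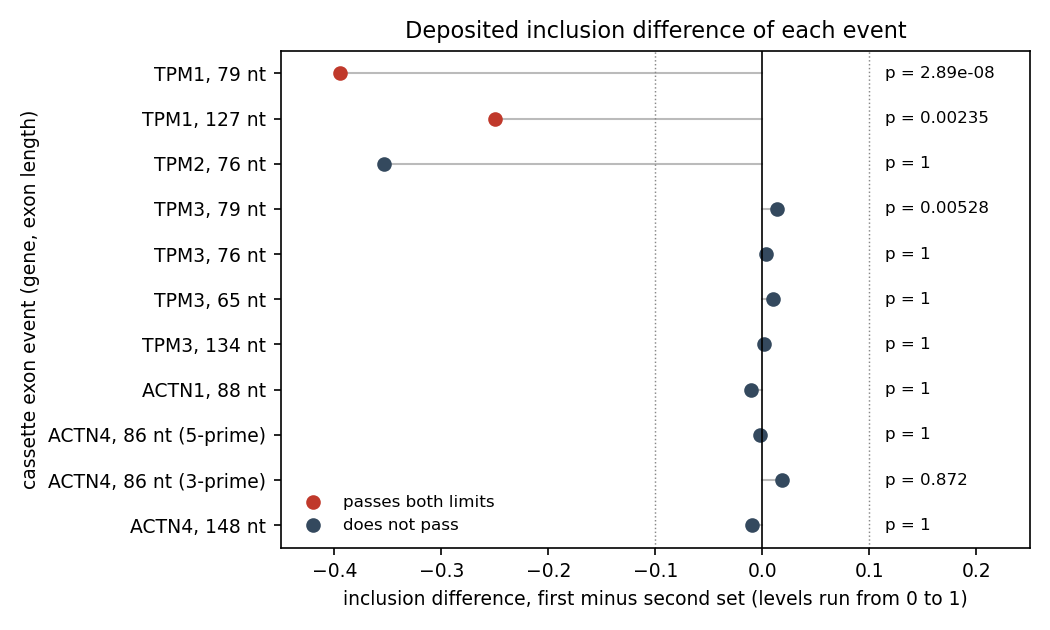
Deposited inclusion difference (x axis, first minus second set of libraries, no unit) of the 11 events by gene and exon length, with the deposited p-value beside each; red points pass both limits and dotted lines mark the minimum difference. The TPM1 exons lie at -0.395 and -0.25, the TPM2 exon at -0.354 with a p-value of 1, and the other 8 events between -0.011 and 0.018.

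The sizes fell into 2 ranges. Of the 9 events that did not pass, 8 had a difference between -0.011 and 0.018, and the ninth was the TPM2 exon. An absolute difference under 0.02 was thus listed for 8 of 11 events, against 26.7% of the table. The median absolute difference was 0.011 for the 11 events and 0.048 for all events. A p-value of 1 stood beside 7 of the 11 events, against 51.4% of the table. The levels differed by at least 0.1 in 3 of 11 events, against 31.5% of the table.

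**Figure D3:**
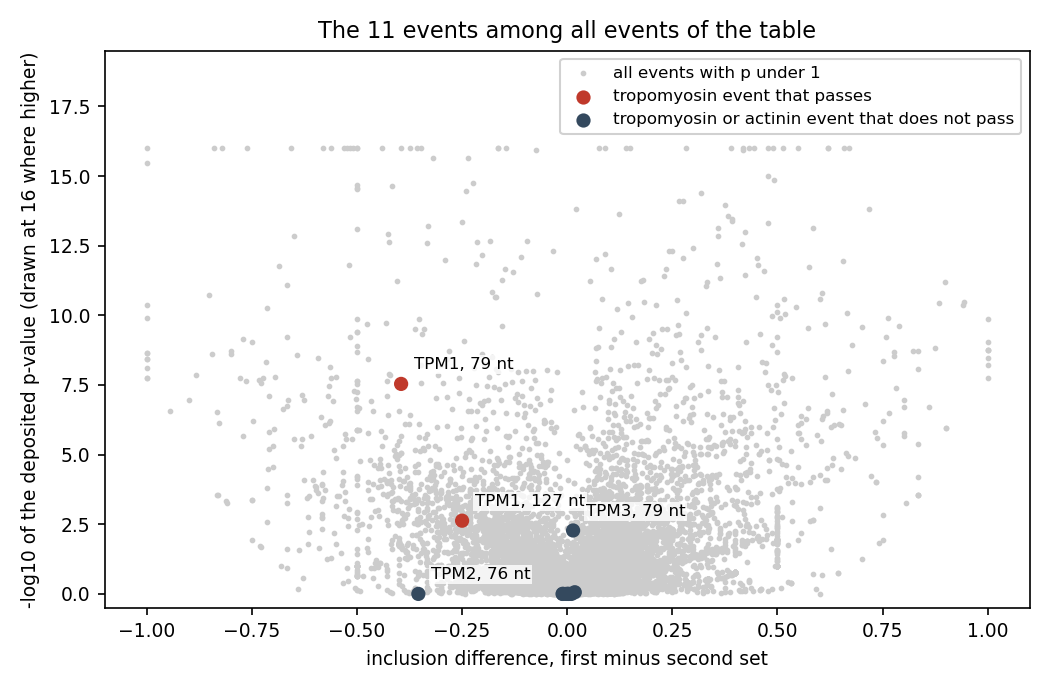
Deposited p-value, as -log10 and drawn at 16 where higher, against the inclusion difference (first minus second set); grey points are all events with a p-value under 1, large points the tropomyosin and actinin events. The 79-nt TPM1 exon stands apart from the other 10 events, while the TPM2 exon has a similar difference at the bottom of the plot.

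None of the 11 exons has a length divisible by 3 (0 of 11, against 40.7% of the 27483 unique exons of the table), so that leaving out any of the coding ones shifts the reading frame. Their lengths ran from 65 to 148 nt with a median of 86 nt, against a median of 117 nt in the table. In the pairs of ACTN4 and TPM2, both exons have the same length, so that replacing one by the other keeps the frame. Of the 11 exons, 9 are wholly coding in the matched protein-coding transcripts. The exceptions are the 127-nt TPM1 exon and the 65-nt TPM3 exon, for which no protein-coding transcript was matched. A skipping transcript is annotated for 6 of the 11, all in tropomyosin genes. For the 5 without one, the largest absolute difference was 0.018.

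The letters GCATG were searched on both strands of the exon sequences. On the transcript strand they occur in 0 of the 11 exons, against 11.6% of the 24753 table exons with a matched sequence. Counting both strands they occur in 2, the 5′ exon of the ACTN4 pair and the 127-nt TPM1 exon, against 19.2% of the matched table exons. In both exons the match is on the strand opposite to the transcript, so the RNA of neither exon holds GCATG. Among table exons of the same length as each member, the share with a match on the transcript strand ran from 3.6% to 13.9%, and on either strand from 7.21% to 26.3%. The flanking introns were not searched, because an hg19 genome was not used here.

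The number of possible junction positions differs with exon length. The deposited effective length of the skipping form is 94 nt in all events. For the inclusion form it was 173 nt for the 79-nt exons and 188 nt for the 127-nt exon. Junction reads can also come from copies elsewhere in the genome. GENCODE 29 annotates 8 processed pseudogenes of TPM3, 2 of ACTN4 and 0 of TPM1, TPM2 and ACTN1. How the authors treated reads that map to several places is not given in the sources used here, so the TPM3 and ACTN4 values are uncertain in this respect.

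Other genes of the actin filament and stress fibre machinery were described from a list of 54 genes, which held myosins and their light chains, filamins, focal adhesion proteins and further partners of tropomyosin and alpha-actinin. Events were listed for 37 of these genes, 116 in all, and 11 events in 8 genes passed (9.48%, against 5.15% of the table). Of the 11, 8 had the higher inclusion in the second set and 3 in the first set. The median absolute difference was 0.032, against 0.048 in the table.

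FLNA and FLNC encode filamins, which cross-link actin filaments into networks as alpha-actinin does into bundles. Each had 1 passing exon, with the higher inclusion in the second set. For a 24-nt exon of FLNA, the authors' deposited table held a difference of -0.25 at an FDR of 2.3e-11. A 99-nt exon of FLNC was listed there at -0.193 with an FDR of 0.0221. The other event of FLNC, at 0.034, did not pass. The other 8 events of FLNA had differences between -0.014 and 0.027 and did not pass.

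The passing exons that were higher in the first set came from 2 genes. MYL6 encodes the essential light chain of non-muscle and smooth-muscle myosin. Its adjoining exon segments of 108 and 36 nt had differences of 0.164 and 0.165 in the authors' deposited table, with FDRs of 1.6e-07 and 0.000717. These 2 segments abut with no intron between them and are counted as 2 events, so they may not be separate observations. The other events of MYL6 had differences of -0.034, -0.002 and 0.079 and did not pass. DMD encodes dystrophin, which links actin to the membrane through a domain related to that of alpha-actinin. Its 32-nt exon was listed in the authors' deposited table at 0.399 with an FDR of 0.00432. The other 3 events of DMD had differences of -0.203, -0.075 and -0.018 and did not pass. UTRN encodes utrophin, a relative of dystrophin, and its passing exon went the other way. This 39-nt exon was higher in the second set, with -0.311 in the authors' deposited table at an FDR of 0.00915. The other 3 events of UTRN, between -0.087 and -0.022, did not pass.

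PXN encodes paxillin, a scaffold of focal adhesions, and had 2 passing exons, both higher in the second set. The authors' deposited table gave -0.203 for its 279-nt exon, at an FDR of 3.54e-07, and -0.334 for its 102-nt exon, at an FDR of 0.00859. The other events of PXN had differences of -0.101, -0.052, -0.045, 0.037 and 0.5 and did not pass. The largest of these, 0.5, was in the opposite direction.

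**Figure D4:**
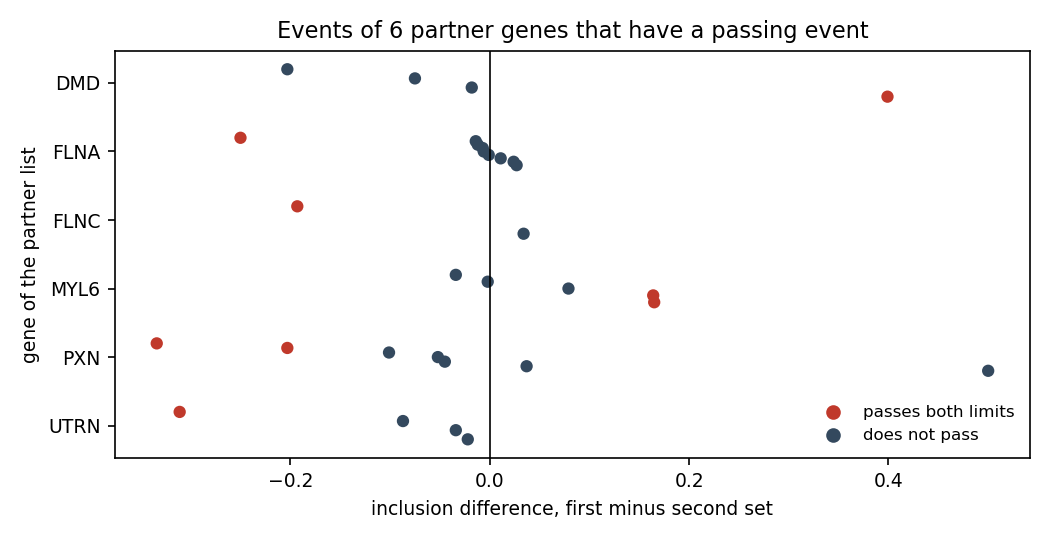
Deposited inclusion difference (x axis, first minus second set) of every event of 6 partner genes that have a passing event; red points pass both limits. Passing events lie right of 0 for DMD and MYL6 and left of 0 for FLNA, FLNC, PXN and UTRN.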

How the data were processed

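The authors deposited 1 table for this comparison, the skipped-exon output of rMATS from junction reads, per the file headers and name. Reads were aligned with STAR 2.7.3a to hg19, per the submitters' processing notes; the rMATS version, annotation and read filters are not given in the sources used here. The p-value and FDR were deposited by the authors, and the FDR equalled a Benjamini-Hochberg adjustment over the 31408 events (largest gap 1.11e-16). The sign of the inclusion difference was read as first minus second set, the rMATS convention. The table's 6 columns of values per library carry no clone name and were not used, so no count model was run and depth is not given.

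Positions are hg19, with 1-based starts. Exons were matched to GENCODE 29 by gene identifier, exon length and both flanking intron lengths (10 of 11 events) or, for TPM2, by exon length and the 5′ intron alone. Sequences are those of the matched GENCODE transcripts. No coordinates were converted.

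Exons were named if they passed, had a p-value under 0.05 or formed an exclusive pair; the remaining exons were added as examples, also for printed sequences. Of the partner list, the genes with a passing event were named, except for 2 that are not reported here. Members and lists were chosen with earlier results of these data known. The code for the limits and the adjustment was tested on simulated data; the deposited p-values were taken as they stand. Python 3.11.15, pandas 2.3.3, numpy 2.4.6 and matplotlib 3.10.9 were used.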

Additional observations from a re-analysis of the deposited data

How the results depend on the processing

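Of the 2 passing events, and 2 passing exons, of the 6 genes, 1 remained at an FDR limit of 0.01 and 1 under a Bonferroni correction over the table: in both cases the 79-nt TPM1 exon. Both TPM1 events passed at an FDR limit of 0.1, without a minimum difference, at a minimum difference of 0.2 and with each exon's lowest p-value corrected for its number of events. Counting overlapping exons once, an alternative chosen after seeing the data, left 1 passing exon of 9. The ACTN4 pair and the 79-nt TPM3 exon did not pass under any of the 5 changed limits. The partner list had 7 passing events at a minimum difference of 0.2 and 5 under Bonferroni, where the whole table had 472; the stricter limits account for this by construction. The count of exclusive pairs, 1, was the same when shared flanking exon ends were required. No paired analysis was possible because nothing in the deposited table ties a value to a numbered clone. Leaving out single libraries was not run, because the columns of values per library were not used, so how far 1 clone decides the TPM1 call was not tested.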
